A study of Homo sapiens with 6 samples.

Results

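Immediate early genes are transcribed within minutes of a growth factor, cytokine or stress signal, without new protein synthesis, from promoters already loaded with factors that ERK, JNK and p38 kinases phosphorylate. Several of them encode the FOS and JUN proteins, which pair through leucine zippers to form AP-1, a transcription factor that binds TGAGTCA-type sites and is highly active in invasive breast cancer cells. FOS proteins need a JUN partner, whereas JUN proteins can also pair with each other. The 10 genes described here were chosen by symbol, with no threshold on a measured value but with earlier results of these data known: FOS, FOSB, FOSL2, JUN, JUNB, JUND, EGR1, IER2, IER3 and ZFP36. FOSL1, the remaining FOS family gene, is not a member and is given only for comparison. The count table held 29538 genes. All 10 members were in it, and all 10 were among the 16412 genes that passed a filter on low counts.

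The cells were MDA-MB-231, an established human breast cancer line without oestrogen receptor. In the control group (siNC, 3 libraries) cells in 12-well plates were given 160 pmol per well of a negative-control siRNA, and in the knockdown group (siBYSL, 3 libraries) the same amount of SI-BYSL-Homo-838, a single siRNA against BYSL. The gene BYSL encodes bystin, which small ribosomal subunits need to mature. Both groups shared the line, high-glucose DMEM with 10% serum, the lipid reagent, a change of medium at 6 h and RNA extraction at 48 h, and each library is labelled a biological replicate, so the levels are those of cells growing in serum 2 days after transfection and not of a stimulated time course. With a single siRNA, effects of losing BYSL and other effects of that siRNA cannot be told apart. In bulk RNA, a change in the share of cells expressing a gene and a change in RNA per cell cannot be told apart either.

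The strands of the siRNA, without their TT overhangs, are shown because bases 2 to 8 of a loaded strand, its seed, in capitals, can lower other transcripts through matching sites in the 3′ UTR.

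guide (antisense) strand: uAUUCAGCaacgucaucuc

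passenger (sense) strand: gAGAUGACguugcugaaua

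The heptamer that pairs with the guide seed, GCTGAAT, was found in the longest annotated 3′ UTR of 1550 of 13069 tested genes (11.9%), and in 0 of the 10 members. FOSL1 held none either. The heptamer for the passenger seed, GTCATCT, was in 12.1% of genes and in 1 member, FOSL2, where it lay at position 1248 of the 3′ UTR on chromosome 2.

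FOSL2 passenger-seed match: ccctctgtgGTCATCTgccacctgc

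Libraries held 27754883 to 32088817 counts. BYSL was at 94.5 to 104.1 CPM (counts per 1000000 of the TMM-scaled library total) in siNC and 15.7 to 17.4 CPM in siBYSL (log2 fold change -2.61, edgeR adjusted p = 9.4e-09), so all 6 libraries followed their labels. siBYSL 3 stood apart. A chi-square comparison of its counts gave 14.3 per degree of freedom with siBYSL 1 and 8.9 with siBYSL 2, whereas siBYSL 1 and 2 gave 2.58 and pairs of siNC libraries 2.01 to 3.45. The 5 markers of the line (VIM, CD44, EGFR, AXL and CAV1) summed to 4822 to 4888 CPM in siNC and 4110 to 4249 CPM in siBYSL. Of these, 4 were called as falling and CD44 as rising. ESR1 had at most 3 counts in any library. The 6 luminal epithelial markers summed to 31.0 to 34.2 CPM in siNC and 43.5 to 45.9 in siBYSL. Only 3 of the 6 passed the count filter, and 2 of those 3 were called as rising and 0 as falling. For the 7 fibroblast markers the sums were 15.1 to 17.7 and 18.9 to 19.4. Of these, 4 passed the count filter, and 1 was called as rising and 0 as falling. The 6 leukocyte markers found by symbol in the count table (CD3E was not) summed to 15.9 to 17.5 and 16.4 to 20.7, and 0 of the 2 tested were called. The 4 endothelial markers, with CDH5 at 0 in 4 libraries, summed to 9.48 to 10.6 and 10.9 to 12.2 CPM. Of these, 2 were tested and 0 were called. The part of these differences in the results below was not tested.

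Of the 10 members, 4 fell in siBYSL and 0 rose at an adjusted p under 0.05. ZFP36 fell to 60.5% of its control level and JUNB to 69.6%, while JUN and FOSL2 fell by small amounts, to 88.4% and 87.2%. JUND, EGR1, IER2, IER3, FOS and FOSB did not pass the test. Only 2 members, ZFP36 and JUNB, were called without siNC 2 or without siNC 3. Among all 16412 genes 18.4% fell, 18.5% rose and 36.9% were called in either direction, so the share of members called (4 of 10) was close to the background, and their direction was downward in each of the 4. In the same 4 genes all siBYSL libraries lay below all siNC libraries, which held for 24.9% of all genes. No member lay wholly above, as 24.7% of all genes did. The median log2 fold change of the 10 was -0.11, beside 0.0066 over all genes tested. At an unadjusted p under 0.05 there were 6 members, the 4 above with EGR1 and JUND.

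**Figure D1:**
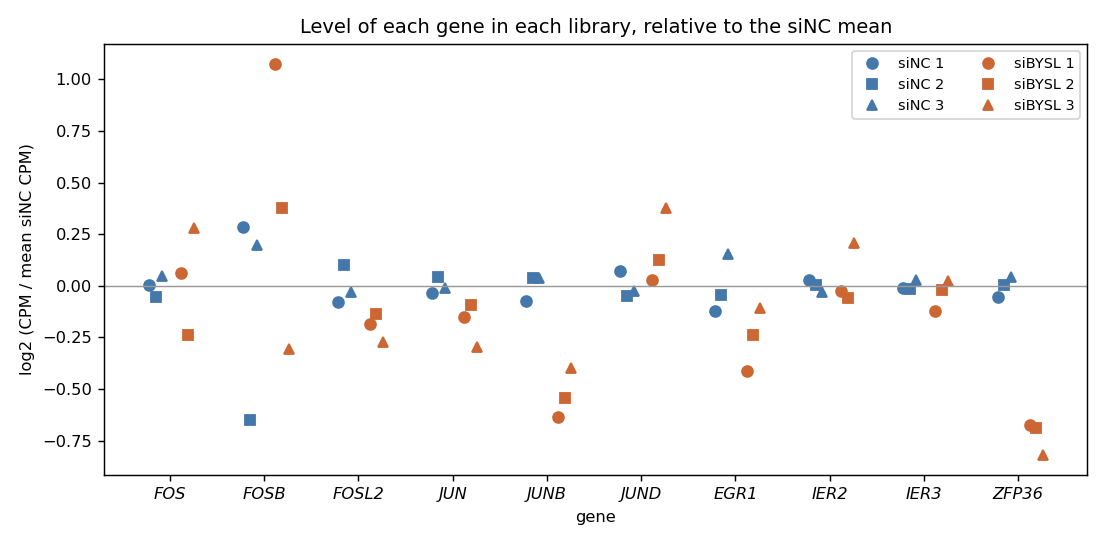
Level of each of the 10 genes in each library, as log2 of CPM over the mean siNC CPM of that gene; blue is siNC, orange is siBYSL, and the marker shape gives the replicate number. The siBYSL points of ZFP36 (-0.67 to -0.82) and JUNB (-0.40 to -0.63) lie clear of the siNC points, while those of FOSB span -0.31 to 1.08.

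Among the JUN genes, JUNB had the clearest change. JUNB (ENSG00000171223.6, chr19:12791496-12793315, plus strand of GRCh38) is a single-exon gene whose protein pairs with FOS proteins and often acts as a weaker activator than JUN. It stood at 40.2, 43.4 and 43.4 CPM in siNC 1 to 3 and at 27.3, 29.1 and 32.1 CPM in siBYSL 1 to 3. The groups did not overlap, and the gap between them exceeded the spread within either. The log2 fold change was -0.52 (SE 0.072, edgeR adjusted p = 2.7e-04). JUNB remained called, with values of -0.59 to -0.45, under every alternative tried. On the opposite strand HOOK2 shares 259 exonic bases with it and rose in siBYSL. HOOK2 had 346 to 531 counts per library against 787 to 1288 for JUNB. The libraries mark strand, but whether counting used it is not given in the sources used here.

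JUN (ENSG00000177606.8, chr1:58780788-58784327, minus strand), the founding JUN gene and the main target of JNK, was at 81.1, 85.5 and 82.3 CPM in siNC and 74.8, 77.8 and 67.5 CPM in siBYSL. Every siBYSL library was below every siNC library, siBYSL 3 furthest. The fall of 0.18 on the log2 scale (SE 0.061) passed narrowly with adjusted p = 0.043. It no longer passed without siNC 1 (adjusted p = 0.0842), without siNC 2 (0.149), without siNC 3 (0.114) or without siBYSL 1 (0.0507), with library totals (0.283) or with upper-quartile factors (0.104).

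JUND (ENSG00000130522.6, chr19:18279760-18281622, minus strand) is the JUN gene that is expressed most steadily and responds least to serum. It stood at 125.2, 115.4 and 117.2 CPM in siNC and 121.4, 129.9 and 154.7 CPM in siBYSL. The groups overlapped through siBYSL 1, siBYSL 2 was little above the siNC range, and siBYSL 3 was far above the rest. The log2 fold change of 0.18 had a 95% interval of 0.0032 to 0.36 and an adjusted p of 0.102, so no change was called. It passed as a rise without siBYSL 1 (0.26, adjusted p = 0.0184), with library totals (0.26, adjusted p = 0.0199) and with no filter on low counts (adjusted p = 0.0316). Each of these fits included siBYSL 3, the highest library. Ratios of genes within a library do not depend on library scaling. JUND had 3.12, 2.66 and 2.70 counts per JUNB count in siNC and 4.45, 4.47 and 4.82 in siBYSL, without overlap. Against JUN the ratio was 1.54, 1.35 and 1.42 in siNC and 1.62, 1.67 and 2.29 in siBYSL. JUNB and JUN were both called as falling, which raises both ratios, so neither is separate evidence of a rise in JUND.

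FOSL2 was the only FOS family member of the 10 with substantial expression. FOSL2 (ENSG00000075426.12, chr2:28392448-28417312, plus strand) encodes FRA-2, a FOS protein that lacks the strong activation domain of FOS. It was at 135.0, 152.7 and 139.7 CPM in siNC and 125.3, 129.6 and 117.8 CPM in siBYSL. The highest siBYSL library was below the lowest siNC library by a smaller gap than the spread among siNC. The log2 fold change was -0.20 (SE 0.060, adjusted p = 0.0255), and it was not called without siNC 2 (adjusted p = 0.126) or siNC 3 (0.0691), with library totals (0.189) or with upper-quartile factors (0.067).

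FOS and FOSB, the classical serum-induced members, had few counts in both groups. FOS (ENSG00000170345.10, chr14:75278774-75282230, plus strand) had 53, 51 and 58 counts in siNC and 57, 53 and 66 in siBYSL, or 1.82 to 1.95 CPM against 1.60 to 2.29 CPM. Its log2 fold change was 0.042 with a 95% interval from -0.35 to 0.43 (adjusted p = 0.874). FOSB (ENSG00000125740.14, chr19:45467995-45475179, plus strand), the other inducible FOS gene, had 19, 10 and 19 counts in siNC and 34, 24 and 13 in siBYSL. Its log2 fold change was 0.48 with a 95% interval from -0.35 to 1.31 (adjusted p = 0.344), and no change was called. siBYSL 1 was the highest FOSB library and siNC 2 the lowest, and the groups overlapped.

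**Figure D2:**
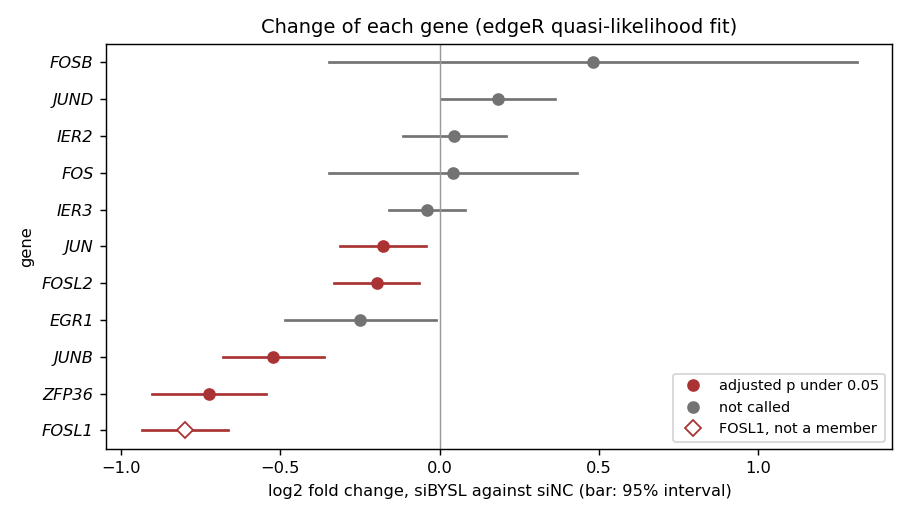
Log2 fold change of each gene in siBYSL against siNC from the edgeR fit, with its 95% interval; red marks an adjusted p under 0.05, grey the genes not called, and the open diamond FOSL1, which is not a member. JUNB, ZFP36 and FOSL1 lie lowest, and FOSB has the widest interval, -0.35 to 1.31.

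Among all FOS and JUN family transcripts, FOSL1 held a smaller share in siBYSL than in siNC and JUND a larger one. FOSL1, which encodes FRA-1 and is known as a prominent AP-1 gene of this line, was at 287.9, 301.9 and 289.9 CPM in siNC and 161.2, 160.7 and 183.3 CPM in siBYSL (log2 fold change -0.80, SE 0.061, edgeR adjusted p = 6.6e-06). With each count divided by exon length, FOSL1 held 54.2% ± 0.58 of the transcripts of the 7 FOS and JUN genes in siNC, against 41.1% ± 0.77 for siBYSL, each with SD over 3 libraries. JUND held 22.3% ± 1.2 and 33.4% ± 1.9, the next largest share. Its lowest siBYSL value, 31.8%, exceeded its highest siNC value, 23.6%. The share of JUN was 8.17% ± 0.11 and 9.61% ± 1.3, that of FOSL2 6.94% ± 0.34 and 8.04% ± 0.87, and for both genes the groups overlapped through siBYSL 3 (8.15% and 7.03%). JUNB took 8.11% ± 0.32 and 7.46% ± 0.13, FOS 0.204% ± 0.010 and 0.278% ± 0.038, and FOSB 0.035% ± 0.012 and 0.067% ± 0.035. Shares sum to 100%, so the lower FOSL1 raises the shares of the others by construction. These shares are descriptions without a test and stand for transcripts, not protein.

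**Figure D3:**
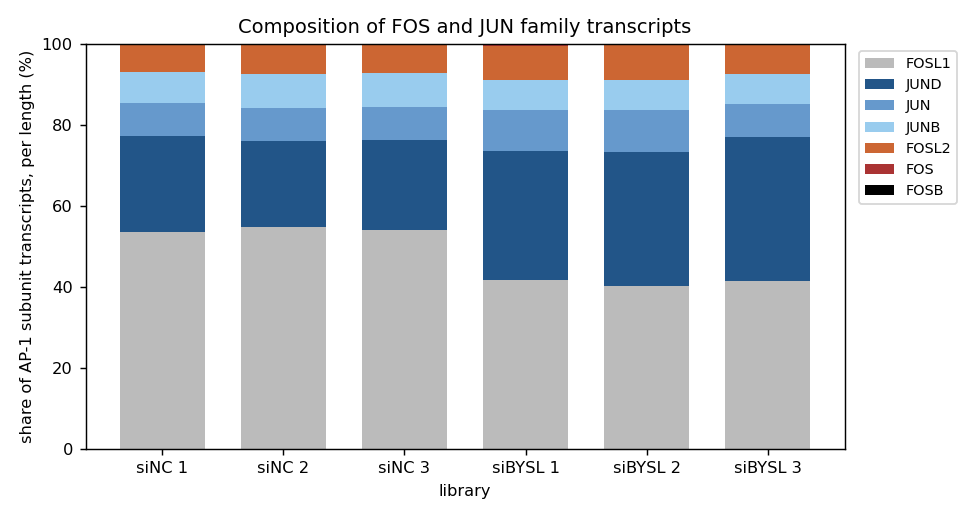
Stacked bars give the share of each FOS and JUN family gene among their summed counts per exon length, in percent, for each of the 6 libraries. FOSL1 (grey) covers 53.7% to 54.8% in siNC and 40.3% to 41.7% in siBYSL, and JUND (dark blue) 21.2% to 23.6% and 31.8% to 35.5%; FOS and FOSB are too small to see.

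EGR1, IER2, IER3 and ZFP36 lie outside AP-1. EGR1 (ENSG00000120738.8, chr5:138465490-138469315, plus strand) is a zinc-finger transcription factor induced through serum response factor. It was at 9.70, 10.2 and 11.8 CPM in siNC and 7.94, 8.96 and 9.79 CPM in siBYSL. The 2 groups overlapped, since siBYSL 3 was above siNC 1. Its log2 fold change was -0.25 (95% interval -0.49 to -0.012, adjusted p = 0.0923), and it was called without siBYSL 3 (-0.32, adjusted p = 0.0141).

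IER2 (ENSG00000160888.7, chr19:13150415-13154908, plus strand), a small nuclear regulator of transcription, was at 50.6, 49.8 and 48.7 CPM in siNC and 48.9, 47.8 and 57.4 CPM in siBYSL. Only siBYSL 3 was above the siNC range. The log2 fold change was 0.046 (95% interval -0.11 to 0.21, adjusted p = 0.655), and -0.040 without siBYSL 3. An opposite-strand transcript, AC011446.2, with 51 to 82 counts per library, shares 946 exonic bases with IER2.

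IER3 (ENSG00000137331.12, chr6:30743199-30744554, minus strand), also known as IEX-1, protects cells from some death signals and is induced by NF-kB and ERK. It was the most abundant member, at 474.1, 472.5 and 487.1 CPM in siNC and 439.0, 471.8 and 484.9 CPM in siBYSL. siBYSL 3 lay within the siNC range, siBYSL 2 just under it and siBYSL 1 further below. The log2 fold change was -0.039 with a narrow interval of -0.16 to 0.081 (adjusted p = 0.611), and its sign turned with library totals (0.039). The antisense gene IER3-AS1, which shares 359 exonic bases with it, had 227 to 340 counts per library against 12665 to 15595 for IER3.

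ZFP36 (ENSG00000128016.7, chr19:39406813-39409412, plus strand) encodes tristetraprolin, which binds AU-rich elements in 3′ UTRs and recruits the CCR4-NOT deadenylase. It showed the largest fall of the 10. The levels were 13.9, 14.5 and 14.9 CPM in siNC and 9.08, 8.99 and 8.19 CPM in siBYSL, with similar values within each group and a wide gap between them. The log2 fold change was -0.72 (SE 0.082, edgeR adjusted p = 7.4e-05), and it lay between -0.75 and -0.65 and stayed called in all alternatives tried. IER2 had 3.63, 3.43 and 3.26 counts per ZFP36 count in siNC and 5.39, 5.32 and 7.004 in siBYSL. With ZFP36 as the divisor, this ratio restates its fall and is not separate evidence of it.

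Levels of different genes can be compared per length only. On counts per exon length, scaled to the same sum in every library, the siNC order was IER3 (906.5 ± 21.4), JUND (164.6 ± 5.0), JUN (60.3 ± 2.3), JUNB (59.8 ± 3.4), FOSL2 (51.2 ± 3.9), IER2 (41.6 ± 0.59), ZFP36 (18.5 ± 0.83), EGR1 (8.66 ± 0.94), FOS (1.501 ± 0.052) and FOSB (0.258 ± 0.079), with SD and n = 3. JUN and JUNB did not differ beyond their spread. In siBYSL JUNB (44.4 ± 1.8), IER2 (45.9 ± 3.0) and FOSL2 (47.8 ± 3.9) overlapped, and JUN (57.1 ± 6.0) lay above all 3 of these, although its lowest library nearly met the highest of FOSL2. These per-length levels carry no TMM factor and serve for order within a group, not for change between groups.

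**Figure D4:**
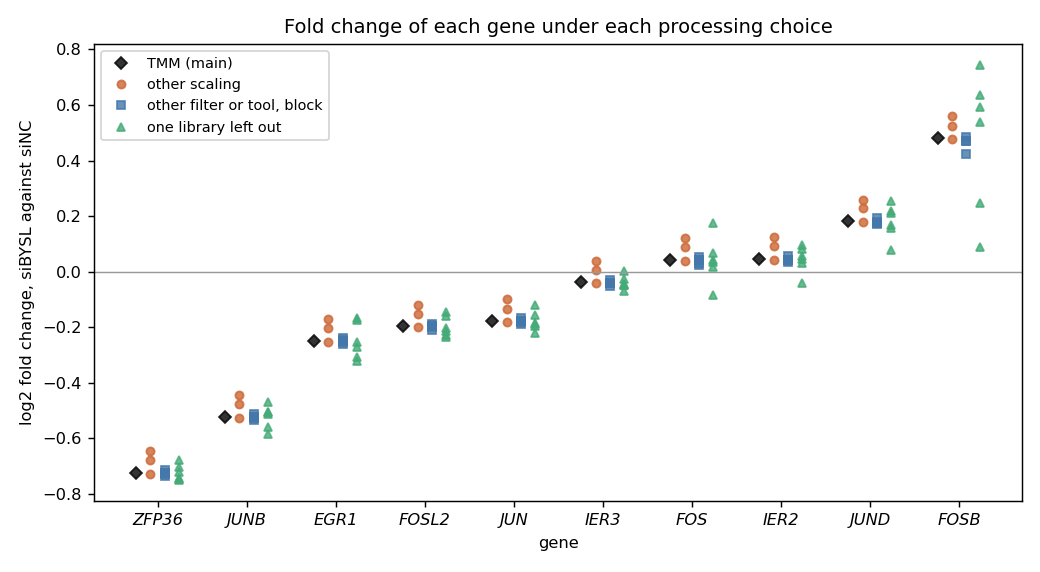
Log2 fold change of each of the 10 genes under the main fit (black), other scalings (orange), other filters, tools or the replicate block (blue) and with each library left out (green). ZFP36 and JUNB stay below -0.44 throughout, IER3, FOS and IER2 scatter around 0, and FOSB moves between 0.090 and 0.74.

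The proximal promoters of several members hold known response motifs, and windows around those motifs are shown. RefSeq start-site windows (GRCh38.p14, 250 bases before to 50 after the start, on the gene's strand) were matched for 9 members; IER3 was not matched. Positions count from the start site. The CArG box, bound by serum response factor, occurred in 1.29% of 27305 windows and in 1 member, EGR1, which held it at -105 and -83. The core of the cAMP response element, TGACGT or ACGTCA, was in 8.32% of windows and in 5 members, namely FOS, FOSB, FOSL2, EGR1 and JUND. JUND also held the full element TGACGTCA, which overlaps that core and was in 1.98% of windows. It lay at -200, outside the stretch printed for JUND, where the capitals mark a separate core at -87. The variant AP-1 site TGACATCA or its reverse complement was in 2.71% and in JUN alone, and TGAGTCA or TGACTCA was in 4.92% and in FOSL2 alone. All were searched on both strands. Of the genes whose windows are printed, JUN and FOSL2 fell by small amounts and EGR1, FOS, FOSB and JUND were not called. In the windows of JUNB, ZFP36 and IER2 none of these motifs occurred. Sequence farther from the start site was not searched, so a motif missing here may still lie outside the window. A motif match is a description and does not show binding. Capitals mark the motifs, which are CArG boxes in EGR1, the core element in FOS, FOSB and JUND, the variant AP-1 site in JUN and the AP-1 site in FOSL2.

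EGR1 (chr5:138465364-138465413, plus strand): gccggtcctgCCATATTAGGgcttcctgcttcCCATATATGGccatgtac

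FOS (chr14:75278743-75278792, plus strand): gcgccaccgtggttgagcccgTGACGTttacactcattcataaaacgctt

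FOSB (chr19:45467911-45467960, plus strand): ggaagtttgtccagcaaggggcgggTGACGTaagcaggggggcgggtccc

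JUND (chr19:18281668-18281717, minus strand): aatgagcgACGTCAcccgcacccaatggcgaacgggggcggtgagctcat

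JUN (chr1:58784083-58784132, minus strand): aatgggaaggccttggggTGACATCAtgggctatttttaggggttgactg

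FOSL2 (chr2:28392843-28392892, plus strand): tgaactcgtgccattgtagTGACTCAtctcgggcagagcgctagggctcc

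Immediate early transcripts are known to be short-lived, partly through AU-rich elements that ZFP36 itself binds. The pentamer ATTTA was in the longest 3′ UTR of 72.9% of tested genes and of 9 of the 10 members, all but IER2. FOSL2 held 9 in 4864 bases, IER3 held 6 in 903, FOS and ZFP36 held 5 each in 806 and 713, and FOSB and JUN held 3 each in 2167 and 1287. JUNB held 2 in 500 bases, and JUND and EGR1 held 1 each in 681 and 1234, against a median of 2 in a median length of 1356 over all tested genes. The nonamer TTATTTATT, which contains the pentamer, was in 9.34% of genes and in 3 members, FOS, FOSL2 and ZFP36. These sites are shown with the nonamer in capitals; of the 3 genes, ZFP36 and FOSL2 fell and FOS did not pass the test.

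FOS nonamer site: gtttttaatTTATTTATTaagatggat

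FOSL2 nonamer site: tttattttaTTATTTATTttaaatgtt

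ZFP36 nonamer site: atgacgactTTATTTATTctaatatga

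In the lists of related AP-1 and immediate early genes, more genes fell than rose. The shares over all genes tested were 18.4% that fell and 18.5% that rose. Of 12 tested AP-1 and related bZIP genes outside the members, FOSL1 among them, 7 fell and 1 rose (median -0.28). A guide-seed heptamer was in 1 of the 7 and in 2 of the 12, against 11.9% of tested genes with a 3′ UTR. The small MAF genes, whose proteins lack an activation domain, were among those that fell: MAFF went from 48.0 ± 3.5 to 32.2 ± 1.0 CPM (log2 fold change -0.58) and MAFK from 41.2 ± 1.4 to 29.4 ± 2.2 CPM (-0.49). BATF, a partner of JUN proteins in lymphocytes, rose from 8.41 ± 0.46 to 12.7 ± 1.8 CPM (0.59, edgeR adjusted p = 0.00183). With library totals 4 fell and 3 rose. Of 31 other immediate early genes tested, 14 fell and 6 rose (median -0.18), 2 of the 14 with a guide-seed heptamer. In the whole list of 31, 5 held it. HBEGF, a ligand of the EGF receptor, fell from 87.6 ± 3.0 to 46.3 ± 1.5 CPM (-0.92), GADD45B by 0.88, and the matricellular genes CCN1 and CCN2 by 0.83 and 0.80. The 6 that rose, named after their values were seen, were RHOB (0.86), NR4A2 (0.60), HES1 (0.54), IER5L (0.50), KLF2 (0.38) and ZFP36L1 (0.27). Both lists were compiled with earlier results of these data known.

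ZFP36 has close relatives with the same RNA-binding fold, and these did not share a direction. ZFP36L2, whose 3′ UTR matches the guide seed, fell from 83.3 ± 0.91 to 62.0 ± 0.99 CPM (-0.43, edgeR adjusted p = 8.5e-05), whereas ZFP36L1 rose from 129.0 ± 2.2 to 155.8 ± 5.3 CPM (0.27, adjusted p = 0.00144). Of 12 tested transcripts known to be bound by ZFP36, 6 fell and 2 rose (median -0.28), against 18.4% and 18.5% of all genes. BIRC3, whose 3′ UTR also matches the guide seed, fell by 1.09, CSF2 by 0.65 and CCND1 by 0.33, and CXCL1 rose by 0.61. Some genes are counted in several of the related lists, so the lists are not independent. CCND1, for example, is also among the AP-1 target genes below.

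Upstream of the members, 30 genes for RAS, MAP kinases and the SRF, ELK and CREB factors were tested; 7 fell and 4 rose (median -0.032), a share called close to the 36.9% of all genes. NRAS fell from 156.5 ± 2.5 to 92.5 ± 6.2 CPM (log2 fold change -0.76), and MAP2K1, which encodes the ERK activator MEK1, from 105.2 ± 0.87 to 67.4 ± 2.4 CPM (-0.64). Their 3′ UTRs match the guide seed. This was so for 5 of the 7 that fell and 11 of the 30, against 11.9% of tested genes with a 3′ UTR. ELK4, a partner of serum response factor, rose by 0.61 and also holds such a match, and MAP2K7, a JNK activator, by 0.36. Without siBYSL 3, 18 of the list were called in place of 11, 9 of them as rises. With library totals 4 fell and 6 rose, and with upper-quartile factors 6 fell and 6 rose. SRF itself was at 94.4 ± 4.2 and 86.6 ± 3.0 CPM (adjusted p = 0.0967). Of 18 tested AP-1 target genes 8 fell and 2 rose (median -0.27), and 1 rose without siNC 1, siNC 2, siNC 3 or siBYSL 2. Over all genes 18.4% fell and 18.5% rose. PLAU, which encodes the protease urokinase, fell by 0.99 and its receptor gene PLAUR by 0.85, and the EGF receptor ligand AREG rose by 0.62. None of the 8 AP-1 target genes that fell held a guide-seed heptamer, and 1 of the 18 tested did.

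**Figure D5:**
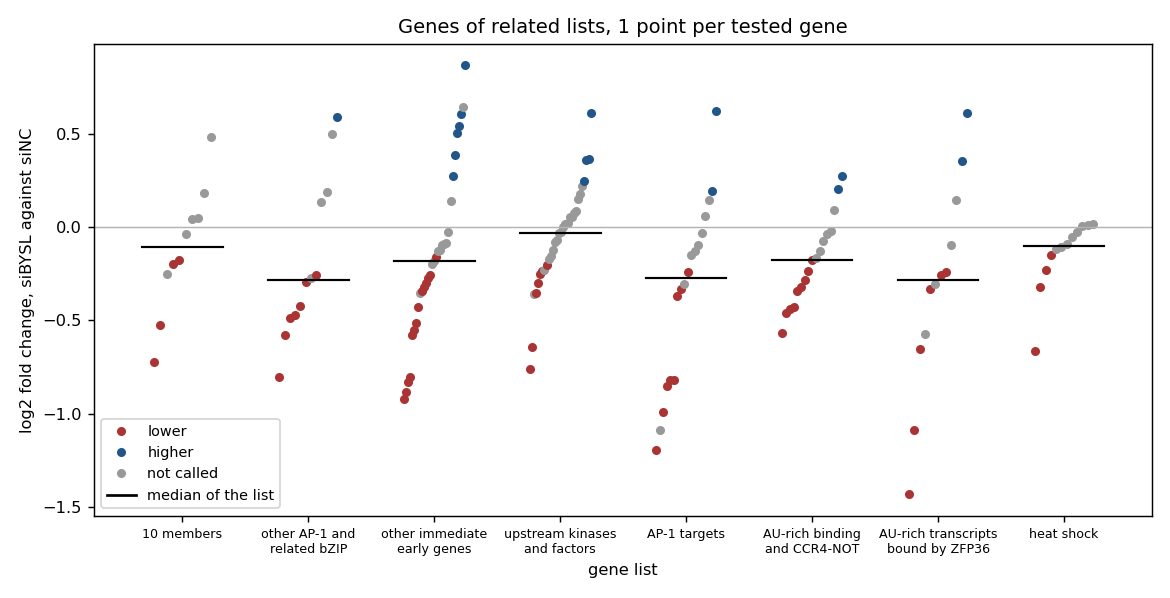
Log2 fold change of each tested gene in the 10 members and in 7 related lists, siBYSL against siNC, with red for genes that fell, blue for genes that rose, grey for those not called and a black bar at each list's median. The medians lie between -0.28 and -0.032, with genes on both sides of 0 in each list.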

How the data were processed

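Poly(A) RNA of 3 siNC and 3 siBYSL samples was sequenced as strand-specific 150 nt paired-end reads, per the labels' protocols. The authors deposited raw read counts per gene. The submitters' processing notes list HISAT2, DESeq2 and build GRCh38.p13 without roles. Which tool counted, with which strand setting and annotation, is not given in the sources used here.

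Counts were filtered with filterByExpr (minimum count 10), scaled with TMM factors and compared with the edgeR 4.0.16 quasi-likelihood F test (robust, group only) in R 4.3.3, with Benjamini-Hochberg adjustment over all 16412 tested genes and a threshold of 0.05. Each SE was taken as the size of the log2 fold change over the root of its F statistic; 95% intervals use its degrees of freedom. CPM use TMM-scaled totals. The test was tried on simulated data. Alternatives used DESeq2 1.42.0, limma 3.58.1, other scalings and filters, a replicate block and each library left out.

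Exon lengths (97.02% of genes matched), positions and 3′ UTRs came from GENCODE 29 and promoters from RefSeq. The members and lists were chosen with earlier results of these data known. Named genes are BYSL, the members, FOSL1 and up to 4 called genes with the smallest p in each other list, of which 1 is not reported here; genes outside this rule are marked where named, apart from ESR1, CDH5, SRF, HOOK2 and 2 antisense genes given for checks, chosen after their values were seen.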

Additional observations from a re-analysis of the deposited data

How the results depend on the processing

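Among the members only ZFP36 and JUNB were called in all 14 alternatives; the number called was 2 with upper-quartile factors and 2 to 5 when a library was left out. Over all genes 6059 were called, 8004 without siBYSL 3 and 4226 to 5646 without any of the other libraries, and 67.37% of calls were rises with library totals and 60.02% with upper-quartile factors, against 50.04%. The sign of IER3 turned with library totals (0.039) and upper-quartile factors (0.0058), and ranged from -0.069 to 0.0026 over left-out libraries. FOS ranged from -0.086 to 0.17 and IER2 from -0.040 to 0.096 in the same way. Replicate numbers did not pair the samples (correlations of -0.343, 0.165 and -0.0235); with a replicate block 5566 genes and 3 members were called, and JUN was the member lost (adjusted p = 0.0566). With the longest transcript as length, shares in siNC were FOSL1 56.9%, JUND 20.8%, JUN 7.59%, JUNB 7.54%, FOS 0.284% and FOSB 0.048%, and in siBYSL FOSL1 43.8%, JUND 31.5%, JUNB 7.03% and FOS 0.393%. The cause of these shifts beyond the change of setting was not tested. The 48 counts of FOSB in siNC limit what its values can show.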

Other observations

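The machinery with which ZFP36 acts was also measured. Of 17 tested genes for AU-rich element binding proteins and CCR4-NOT subunits, 9 fell and 2 rose in siBYSL (median log2 fold change -0.18), with 1 rise left without siNC 1, siNC 3, siBYSL 1 or siBYSL 2. Over all genes tested 18.4% fell and 18.5% rose. The deadenylase gene CNOT6 went from 58.2 ± 2.1 to 39.3 ± 2.5 CPM (-0.57, edgeR adjusted p = 7.1e-05), and CNOT8 and CNOT9 fell by 0.46 and 0.44. A guide-seed heptamer was present in 4 of the 9 that fell and in 5 of all 17, against 11.9% of tested genes with a 3′ UTR.

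Heat shock genes respond to handling and culture stress, as immediate early genes do. Of 12 tested, 4 fell and 0 rose (median -0.099), a share called near the 36.9% of all genes: DNAJB1 by 0.66, HSP90AB1 by 0.32, HSPA8 by 0.23 and HSPA1B by 0.15, the last with adjusted p = 0.0468. DNAJB1 was the only gene of the 12 with a guide-seed heptamer. HSPA1B was not called with library totals (-0.069, adjusted p = 0.328), upper-quartile factors (-0.10, adjusted p = 0.149) or most other alternatives, and kept its call with DESeq2 size factors, with limma-voom and without siBYSL 3. Without siBYSL 3, 7 of the 12 fell, with DESeq2 size factors or limma-voom 4, and in each of the other alternatives 3. HSPA1A, named after its values were seen, was at 28.04 ± 0.95 and 28.3 ± 0.83 CPM (adjusted p = 0.89). HSPA1A and HSPA1B are near-identical copies, so their counts are uncertain.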
